A study of Homo sapiens with 4 samples.

Results

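The accessible sites of human chromosome 8, with the domain around MYC left out, were described in BCPAP cells with and without 5-azacytidine. The chromosome was chosen by a measured value, the lowest ratio of gained to lost regions among chromosomes 1 to 22 and X, and that ratio is therefore given as a description without a test. Its members were the regions on chromosome 8 (hg19) formed by merging the peaks of all 4 lists where they shared 1 bp, with those centred between 127.5 and 130.5 Mb removed. This gave 10536 of the 373425 regions of the series, 365 fewer than the 10901 of the whole chromosome. The short arm, up to 43.8 Mb, held 3060 of them, the long arm, from 46.8 Mb, held 7472, and 4 lay in the centromere interval between. BCPAP is an established human thyroid cancer line, and both groups were cultures of this line alone. The untreated group and the group treated with 5-azacytidine had 2 libraries each, and the labels give neither a dose nor a duration, nor whether the libraries of a group were separate cultures. The spread between libraries may thus be technical.

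ATAC-seq marks the places where a transposase can reach the DNA, mostly promoters and enhancers, as local maxima of read coverage. 5-Azacytidine is built into nucleic acids in place of cytidine and traps the DNA methyltransferases, so that methylation of CpG sites falls as cells divide. Chromosome 8 is known in carcinomas for loss of its short arm, which carries DLC1 and TUSC3, and for extra copies of its long arm, which carries MYC and, further along, the thyroglobulin gene TG. Genes were not placed on the regions here, since the gene table at hand is on another build than hg19, and the thyroid identity of the cells was not checked at TG.

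Libraries differed in the strength of their peaks. On chromosomes 1 to 22 and X, 221110 and 223345 peaks were listed for untreated replicates 1 and 2, and 259572 and 245142 for treated replicates 1 and 2. How many reads lie behind each list is unknown. The uniform background behind the authors' fold values, 0.913, 0.898, 0.898 and 0.875 reads in the same order, differed little. Treated replicate 1 had the lowest peaks. On chromosome 8, 39.5% of its peaks had a summit coverage of 6 reads or fewer, against 22.1% and 25.2% in the untreated lists and 27.8% in treated replicate 2. Over all chromosomes these shares were higher, at 45.0%, 23.4%, 29.8% and 29.9% in the same order of libraries.

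The treated lists did not hold more peaks on chromosome 8, although they did over all chromosomes. Untreated replicates 1 and 2 had 7517 and 6772 peaks there, and treated replicates 1 and 2 had 6238 and 7283. The groups overlapped, because treated replicate 2 lay between the untreated libraries and treated replicate 1 was the lowest of the 4. The treated mean was 6761 ± 739 and the untreated mean 7145 ± 527 peaks (SD, n = 2 each), a difference of −5.37%, while the difference over all chromosomes was 13.6%. Chromosome 8 outside the MYC domain thus took 3.40% and 3.03% of the untreated lists, and 2.40% and 2.97% of the treated lists. Without treated replicate 1 the treated-to-untreated ratio of peaks per Mb turned on the log2 scale from −0.080 to 0.028. Overlap of the groups was not confined to chromosome 8. Chromosome 4 had 11605 and 10627 untreated and 11376 and 11769 treated peaks. On chromosome 13 these were 5335 and 4707, and 4873 and 5315, and on X 5090 and 4764, and 4592 and 5267. On chromosome 1 both treated counts were higher, at 30191 and 26311 against 23141 and 24357.

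Chromosome 8 carried few peaks for its length. Density was 53.6 and 48.3 peaks per Mb without treatment and 44.5 and 52.0 with it, measured between the first and last listed peak. Over all chromosomes it was 75.05 and 75.8, and 88.1 and 83.2, with centromere gaps included in the length. The short arm held 52.6 and 47.0 peaks per Mb without treatment and 42.0 and 49.7 with it. The long arm held 54.1 and 48.9, and 45.6 and 53.0. The arms were thus alike in density in each library. The short arm had 0.972 and 0.962 times the density of the long arm in the untreated libraries, and 0.921 and 0.938 times in the treated ones. On the log2 scale the treated ratio was lower by 0.058 on average, at −0.11 ± 0.018 against −0.048 ± 0.010 (SD, n = 2 each). The groups did not overlap, and p was 0.33 in an exact permutation test (two-sided), the smallest that 2 libraries against 2 allow. The difference rested on the end of the long arm. Without the stretch from 140 Mb, left out after the data were seen, it was 0.018 in the other direction (exact permutation p = 0.667).

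**Figure D1:**
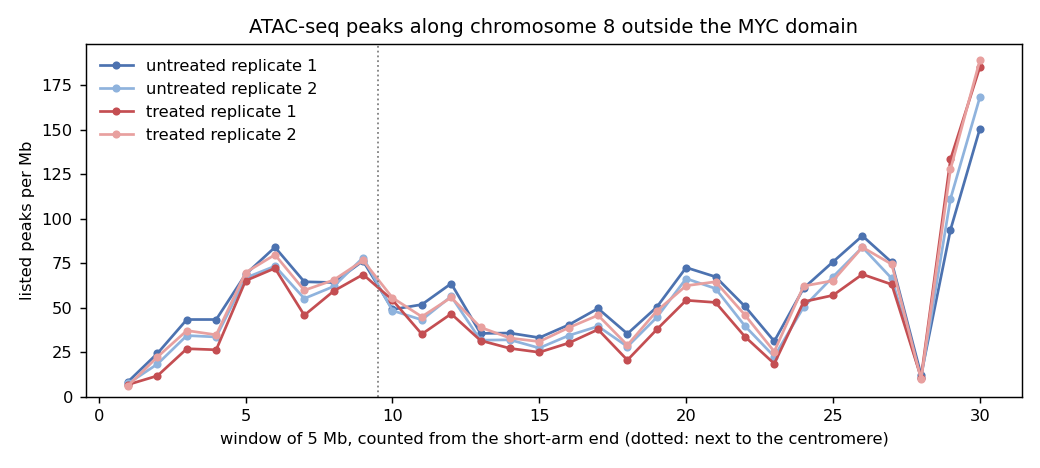
Listed peaks per Mb (vertical axis) in 30 windows of 5 Mb along chromosome 8, counted from the short-arm end (horizontal axis), with 1 line for each library and the MYC domain and centromere interval taken out of the counts and lengths. Treated replicate 1 is the lowest line over most of the chromosome, while both treated libraries lie above both untreated ones in the last 2 windows.

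Most peaks were shared by all libraries or seen in 1 only. Of the 10536 regions, 3383 (32.1%, 95% Wilson interval 31.2 to 33.0) were in all 4 lists, against 28.2% over all chromosomes, and 4117 (39.1%) were in 1 list, against 45.9%. Untreated replicates 1 and 2 listed 64.9% and 57.2% of the regions, and their treated counterparts 54.1% and 61.8%. Over all chromosomes the order was different, at 51.9%, 51.4%, 61.5% and 56.1%. Among regions grouped by the exact set of lists that held them, the widest departure was in those listed in treated replicate 1 alone, which made up 10.8% here and 19.3% over all chromosomes. Regions of untreated replicate 1 alone made up 10.9% here and 7.69% over all, and those in every list but treated replicate 1 made up 7.20% and 4.31%. Chromosomes 4 and 13 had shares nearer to those here, at 15.6% and 13.9%, 9.94% and 10.9%, and 5.89% and 6.27% for the same sets. Chromosome X had 32.9% of its regions in all 4 lists. Regions are no replicates, and the intervals reflect the error of counting alone.

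Lost regions outnumbered gained ones. Gained means here a peak in each of the treated libraries with none in either untreated one, and lost means the opposite. Chromosome 8 outside the MYC domain held 311 gained regions, 2.95% of its regions (95% Wilson interval 2.65 to 3.29), where 4.21% of all regions were gained. It held 534 lost regions, 5.07% (4.67 to 5.50), where 3.35% of all regions were lost. These counts follow from the way the chromosome was chosen, and nothing further is read from them. There were 1.72 lost regions for each gained one. With the domain included the chromosome had 0.576 gained regions for each lost one, and the next lowest were chromosomes X at 0.671 and 18 at 0.747. Chromosomes 4 and 13, which resemble it in their share of lost regions, had 0.781 and 0.775. The domain itself held 9 gained and 22 lost regions. At its edges the first excluded region, from 127500314, had coverages of 39, 28, 12 and 23, and the last region kept before it, ending at 127467908, had a peak of coverage 9 in untreated replicate 1 only. The last excluded region, ending at 130490224, had 12, no peak, 7 and 10, and the first region kept after it, from 130502557, had no peak, 5, 4 and 10. All sets of 4 coverages here and further on are in the order untreated replicates 1 and 2, treated replicates 1 and 2.

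Both arms had this tilt. The short arm held 74 gained and 148 lost regions and the long arm 237 and 386. Leaving out a library changes what a class requires, so only the ratio relative to all chromosomes under the same rule is comparable. This relative log2 ratio was −1.11 with all libraries. Leaving out untreated replicate 1 gave −0.35 and leaving out the other untreated library −1.13, while it was −0.64 without treated replicate 1 and −1.43 without the other treated one. It was therefore smaller when untreated replicate 1 or treated replicate 1 was left out. A listed peak number was missing from a list counted as without a peak at 78 of the gained (25.1%) and 133 of the lost regions (24.9%). A peak called there could have been dropped before deposit, but a missing number does not give its position. The share at other regions is not given here. The regions without such a gap numbered 233 and 401.

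With all libraries, lost regions outnumbered gained ones along most of the chromosome and not at its end. Of 30 windows of 5 Mb, 26 held more lost than gained regions and 4 held more gained. These window counts changed when a library was left out, which also changes what a class requires, so they are not comparable between rules. Of the 28 windows with at least 100 regions, 4 held more gained than lost with all libraries. There were 27 without treated replicate 1 and 13 without the other treated one. Without an untreated library they were 0 and 1. A class that needs 1 list of a group in place of 2 holds more regions, and the log2 ratio over all chromosomes was then 1.56, 1.62, −0.80 and −0.83 in the same order, against 0.33 with all 4 libraries. In the 28 windows with at least 100 regions, the median log2 ratio of gained to lost (1 added to each) was −1.21, and it ranged from −2.46 to 1.08. In the 543 such windows of the other chromosomes the median was 0.00, and 24 of the 28 windows lay below it. The lowest ratio was between 110 and 115 Mb, where 1 region of 198 was gained and 10 were lost. Next came 15 to 20 Mb, where 2 were gained and 15 lost, and 125 to 127.5 Mb, beside the MYC domain, where these were 3 and 18. The most lost regions outside the end of the chromosome lay between 95 and 100 Mb, with 33 beside 13 gained, then between 55 and 60 Mb, with 32 beside 7, and between 120 and 125 Mb, with 28 beside 8. The window from 45 to 50 Mb, next to the centromere, went the other way with 12 gained and 7 lost, and that from 60 to 65 Mb was nearly even with 13 and 12.

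**Figure D2:**
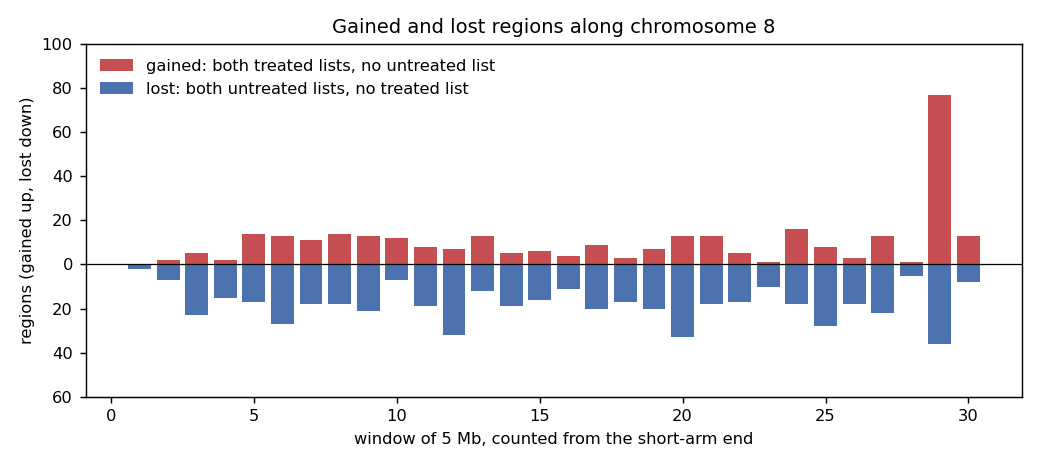
Number of gained regions (red, upwards) and lost regions (blue, downwards) in each window of 5 Mb along chromosome 8 outside the MYC domain, counted from the short-arm end. The window before the last holds 77 gained and 36 lost regions, the most of each, and 26 of the 30 windows hold more lost than gained regions.

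Peak counts of the groups overlapped in 23 of the 30 windows. Among the 28 with at least 100 regions, both treated counts lay above both untreated counts in 3, against 48.2% of windows over all chromosomes. They lay below both in 3 of the 28, against 2.98%. The chromosome was chosen on this contrast, so these shares are a description. The windows with higher treated counts were 45 to 50 Mb, 140 to 145 Mb and the last one. Between 45 and 50 Mb the counts were 157 and 155 without treatment and 174 and 178 with it. Among the 28, the windows with lower treated counts were 55 to 60 Mb, 95 to 100 Mb and 120 to 125 Mb. At 95 to 100 Mb there were 363 and 332 peaks without treatment and 271 and 312 with it.

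The end of the long arm, from 140 Mb, stood apart from the rest of the chromosome in density and in direction. This terminal band is known as gene-rich, and carries PTK2, which encodes focal adhesion kinase, PLEC, which encodes the linker protein plectin, and the imprinted genes KCNK9 and PEG13. It made up 4.50% of the length but 12.6% of the regions, with 1328 regions at 211 per Mb, against 68.8 per Mb on the rest of the chromosome. Peaks there numbered 665 and 775 without treatment and 908 and 885 with it. Both treated libraries lay above both untreated ones, with a mean of 897 ± 16.3 against 720 ± 77.8 (SD, n = 2 each), a ratio of 1.25 that ranged from 1.16 to 1.35 when 1 library was left out. Over all chromosomes the ratio was 1.14. The rest of the chromosome had 6852 and 5997 peaks without treatment against 5330 and 6398 after it, which is 0.913 times as many, and the groups overlapped. The stretch held 90 gained and 44 lost regions, 28.9% of the gained and 8.24% of the lost regions of the chromosome. These were 6.78% and 3.31% of its own regions, against 4.21% and 3.35% over all chromosomes. Its share of lost regions was thus close to that of the series. The rest held 221 gained and 490 lost regions, 2.40% and 5.32% of its regions. The position at which the stretch begins was chosen after these counts were seen, so its counts carry no test. By gained against lost, its windows from 140 and 145 Mb ranked 486 and 426 from the lowest of 571 over all chromosomes. Of these 571 windows, 267 held more gained regions and 288 held more lost ones. An excess of gained regions was thus not peculiar to this stretch.

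Within the stretch the gained regions lay in several places. The step from 144 to 145 Mb held 32 gained and 12 lost regions, that from 142 to 143 Mb held 21 and 10, and that from 141 to 142 Mb held 19 and 1. In the last of these the untreated lists had 75 and 82 peaks and the treated lists 104 and 118. The step between, from 143 to 144 Mb, was the other way round with 5 gained and 12 lost regions, and its peak counts of 96, 105, 114 and 89 overlapped between groups. The step from 145 to 146 Mb had 12 and 7. Gained regions in the stretch were mostly low. The median summit coverage of its gained regions was 6 in treated replicate 1 and 6.5 in treated replicate 2. With only peaks of coverage 10 or more in each list, 7 regions were gained and 17 lost, and at a −log10 q of at least 5 they were 12 and 25. Such limits lowered the ratio on all chromosomes as well. Relative to all chromosomes under the same rule, the log2 ratio of the stretch was 0.71 with all peaks, 0.76 at a coverage of 10 and 0.57 at that q. It was 0.12 without untreated replicate 1 and 0.85 without the other untreated library, and 0.39 and 0.55 without treated replicates 1 and 2. Among the 20000 strongest peaks, with 2 gained and 2 lost regions, it was 0.014.

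The far end of the short arm was nearly empty. No peak was listed in any library from 2263713 to 5875699, a stretch of 3.61 Mb. It was longer than the 3.002 Mb without a peak at the centromere of chromosome 8, and ranked 6 in length among the 373402 intervals between neighbouring regions of all chromosomes. Peak numbers ran on without a break across it in each of the 4 lists, so no peak number was unaccounted for there. DNA copy number was not analysed here, so a missing or reduced stretch of DNA and closed chromatin cannot be told apart, and the length used for the short arm includes the gap. CSMD1, a very long gene of the distal short arm that is often deleted in carcinomas, is known to lie in this part of the chromosome, but its position was not checked on hg19. Before the gap, 60 regions lay at 28.8 per Mb, 20 of them in all 4 lists, and 0 were gained and 2 lost. After it, up to 10 Mb, 146 regions lay at 35.9 per Mb, of which 116 were present in untreated replicate 1, 84 in untreated replicate 2, 55 in treated replicate 1 and 102 in treated replicate 2. The first window, of 5 Mb, accordingly had only 41 and 36 peaks without treatment and 33 and 30 with it. Gaps of 1.24 Mb, from 65298001, and 0.944 Mb, from 138795997, lay on the long arm.

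Sites present in all 4 lists had lower mean summit coverage on chromosome 8 than on any other chromosome used. The median over the 3383 regions was 21 and 16 reads without treatment and 10 and 14 with it, against 23, 18, 11 and 16 over all chromosomes. No chromosome had a lower median, but chromosome 20 had the same medians, 21 and 16, without treatment. Chromosomes 7, 18 and 21 also had 10 in treated replicate 1. Over all listed peaks, shared or not, the median was 11, 10, 7 and 9 reads, against 12, 10, 7 and 9 over all chromosomes. For the chromosome as a whole the mean at shared sites was 0.807 and 0.802 times that over all chromosomes without treatment, and 0.807 and 0.815 times with it. It ranked 1 from the lowest of 23 chromosomes in every library. Chromosome 7, the next lowest in both untreated libraries, had 0.846 and 0.847. The 4 libraries thus gave nearly the same relative level. These regions were kept for a peak in all 4 lists, and the chromosome was chosen on presence in the same lists. The level is therefore a description, not separate from that choice. The arms were close to each other in level. Mean coverage in these regions was 25.7 on both arms in untreated replicate 1, and 20.02 on the short and 19.8 on the long arm in untreated replicate 2. It was 11.6 and 12.1 in treated replicate 1, and 16.7 and 17.9 in treated replicate 2. The medians were equal on both arms, at 21, 16 and 10 reads, except in treated replicate 2, with 14 on the short and 15 on the long arm. The mean log2 ratio of the median on the short arm to that on the long arm was thus lower by 0.050 in the treated group (exact two-sided permutation test, n = 2 each, p = 1).

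**Figure D3:**
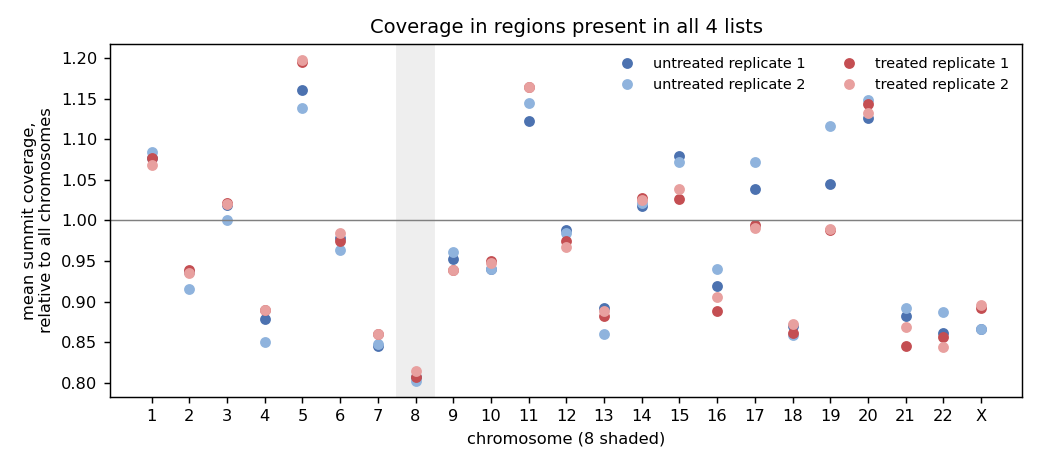
Mean summit coverage in regions present in all 4 lists, divided by the mean over all chromosomes of the same library (vertical axis, starting above 0), for each chromosome (horizontal axis) and library (points). Chromosome 8, shaded, is lowest in each of the 4 libraries, between 0.802 and 0.815.

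Coverage of shared sites also varied along the chromosome. Between 10 and 20 Mb it was low: the means in the window from 15 to 20 Mb were 18.9, 13.4, 8.93 and 12.7 reads, the lowest of the 28 windows in both untreated libraries. The last window, from 145 Mb, had means of 30.5, 27.8, 15.7 and 22.8, the highest in 3 libraries. In untreated replicate 1 the highest was from 65 to 70 Mb, at 31.2. The strongest site, judged by the lowest of its 4 coverages, lay on the short arm from 42150017 to 42150678 with 121, 105, 59 and 78 reads. It was followed by the site from 146012552 to 146013098, near the end of the long arm, with 61, 54, 58 and 67 reads. Its neighbour, from 146011992 to 146012521, had 58, 53, 52 and 72. At both of these the groups overlapped, while the first site and those from 73920675 to 73921699 (87, 71, 53 and 55) and from 28747465 to 28747983 (127, 75, 48 and 66) had lower coverage in both treated libraries.

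Change in coverage at shared sites was like that of the whole series. Coverage as listed was lower on the whole in the treated libraries, with a median log2 ratio of −0.58 on chromosome 8 and −0.55 over all chromosomes. After scaling each library to the same median over shared regions, a step added after the data were seen, the medians were 0.028 and 0.061. On the scaled values both treated libraries lay above both untreated ones in 830 regions (24.5%, against 27.2% over all chromosomes) and below both in 737 (21.8%, against 22.2%). Scaling sets the medians equal over all chromosomes, so balance between higher and lower sites is built in for the series and only the place of chromosome 8 within it is described. On the short arm 222 were higher and 252 lower, on the long arm 608 and 485, and from 140 Mb 91 and 58. On the values as listed, among the 2136 shared regions with at least 10 reads in the lower group median, both treated libraries were higher in 17 and lower in 1100. Without that limit they were higher in 2.99% and lower in 47.9% of the shared regions as listed. Over all chromosomes these shares were 4.39% and 47.6%, so the fall as listed was one of the whole series.

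The few shared sites with the largest increases, by a rule that named 5, all lay on the long arm. The site from 124532404 to 124532945 had 14, 9, 20 and 34 reads, a log2 ratio of group means of 1.23 as listed and 1.83 after scaling. That from 82066237 to 82066783 had 13, 10, 21 and 28 reads. The site from 144655748 to 144658034, a region of 2287 bp in the terminal stretch with 2 to 4 peaks per list, had 11, 9, 18 and 22. The other two, from 131495115 to 131496086 and from 64131866 to 64132413, had 10, 11, 12 and 29 and 12, 10, 14 and 23 reads, so that treated replicate 1 was only just above the untreated libraries.

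The 5 sites named for the largest decreases had 31 or more reads in each untreated library, and a site had to reach 10 in the lower group to be ranked. The site from 103424600 to 103425446 had 66, 48, 12 and 17 reads, a log2 ratio of −1.97 as listed and −1.36 after scaling. On the short arm, the site from 41386363 to 41387034 had 76, 49, 14 and 18 reads, and that from 26148587 to 26149701 had 40, 37, 7 and 15. The sites from 55358530 to 55359108 and from 101170455 to 101171051 had 44, 31, 8 and 12 and 35, 42, 8 and 13. In all 5, both treated libraries were below both untreated ones by more than either pair differed within itself. These sites were picked for their size of change, which therefore carries no test.

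Most lost sites were weak before treatment. Of the regions present in both untreated lists, 10.9% were absent from both treated lists (95% Wilson interval 10.05 to 11.8), against 8.79% (8.64 to 8.95) on the other chromosomes. Where the lower of the 2 untreated coverages was 4 or 5 reads, 34.7% were absent (31.0 to 38.6), against 28.9% elsewhere. At 6 or 7 reads 22.6% were absent, against 19.2%, and at 8 or 9 reads 12.4% against 10.3%. From 10 to 14 reads the shares were 3.84% (2.78 to 5.27) and 3.73%, and from 20 reads on 1 region of chromosome 8 was absent. The shares differed from those of other chromosomes among low peaks and were close from 10 reads on. This is the contrast the chromosome was chosen on, and it is given without a test. Chromosomes 4 and 13 had shares like those of chromosome 8, at 34.3% and 33.1% in the weakest class and 22.2% and 24.0% in the next. Absence from treated replicate 1 was the more frequent, at 26.4% of the regions of both untreated lists, against 15.5% for treated replicate 2. On the other chromosomes these were 20.05% and 13.9%.

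The reverse share was lower than elsewhere, which follows from the contrast the chromosome was chosen on and is given without a test. Of the regions present in both treated lists, 7.67% were absent from both untreated lists (6.89 to 8.53), against 11.6% (11.4 to 11.8) on the other chromosomes. In the weakest class, with a lower coverage of 4 or 5 reads, the shares were 24.4% (21.3 to 27.8) and 33.6%, and at 6 or 7 reads 11.3% (9.52 to 13.4) and 18.2%. At 8 or 9 reads they were 3.64% and 6.22%, and from 10 to 14 reads 0.882% and 1.86%. Chromosomes 4 and 13 lay between, with 27.4% and 27.3% in the weakest class. In the terminal stretch of the long arm, 50.0% of the weakest class and 34.2% of the next were absent from both untreated lists, and before it 20.6% and 8.35%. Gained regions were thus scarce before 140 Mb and frequent after it, a position chosen after the counts of gained and lost regions were seen.

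**Figure D4:**
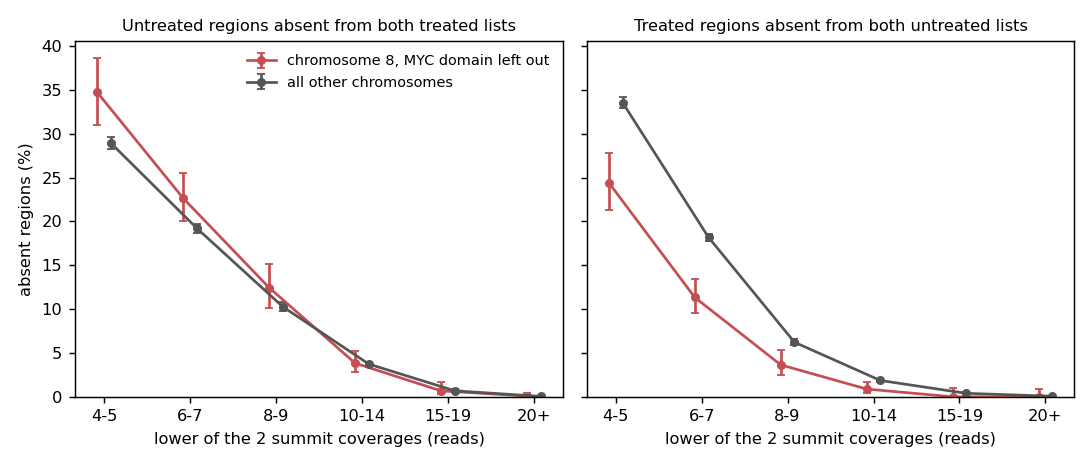
Share of regions of both untreated lists that are absent from both treated lists (left) and of both treated lists that are absent from both untreated lists (right), in percent, by the lower of the 2 summit coverages in reads, on chromosome 8 outside the MYC domain (red) and on the other chromosomes (grey). Bars are 95% Wilson intervals for counting error only, and the red points lie below the grey ones on the right, at 24.4% against 33.6% in the weakest class.

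Most gained and lost sites were low by the standard of shared sites. Gained regions had a median coverage of 6 reads in both treated libraries, and lost regions one of 7 in both untreated libraries. Only 8 of the 311 gained and 41 of the 534 lost regions reached 10 reads in both lists. These were 2.57% and 7.68%, close to the 3.30% and 7.75% over all chromosomes. Ranked by the authors' p-value in the weaker of the 2 libraries, the first gained region lay from 144576176 to 144576696, in the terminal stretch, with 11 and 22 reads in treated replicates 1 and 2 and no listed peak without treatment. The region from 141800747 to 141801299, in the same stretch, had 9 and 12. Neither had a gap in the peak numbers without treatment. The regions from 131260747 to 131261246 (10 and 15 reads), from 118875728 to 118876251 (10 and 14) and, on the short arm, from 38892988 to 38893512 (8 and 15) each had such a gap in untreated replicate 1.

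The strongest lost region, from 98102187 to 98102694, had 30 and 29 reads in untreated replicates 1 and 2 and no listed peak in the treated libraries. However, a peak number was missing around that place in both treated lists. The next lost region had no such gap. It lay from 123733865 to 123734381, with 34 and 16 reads. The region from 80304356 to 80304882 had 20 and 16 reads, again with no missing number. Those from 51027922 to 51028429 (26 and 15 reads) and from 96249290 to 96249794 (19 and 13) each had a number missing in 1 treated list. All 5 lay on the long arm before 140 Mb. In the terminal stretch the strongest lost region, from 146125522 to 146126046, had 15 and 9 reads, with a number missing in both treated lists.

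Replicates differed along the chromosome in a common pattern. Untreated replicate 2 had fewer peaks than untreated replicate 1 in 27 of the 30 windows, and treated replicate 1 had fewer than treated replicate 2 in 27. Over all chromosomes these were 363 and 318 of 571 windows with at least 100 regions. In the window from 140 to 145 Mb, untreated replicate 2 had more peaks than replicate 1, 556 against 469, and treated replicate 1 more than replicate 2, 667 against 639. Over the 28 larger windows (100 regions or more), the log2 ratio of untreated replicate 2 to replicate 1 and that of treated replicate 1 to replicate 2 had a Pearson r of 0.81 and a Spearman rho of 0.83. These ratios share no library, and without the windows from 140 Mb r was 0.76. Over 571 windows of all chromosomes r was 0.72. Windows share base composition and density within a chromosome, so this is a description. Gained against lost, on the log2 scale, had an r of 0.62 with the number of regions per Mb over the same 28 windows, and 0.36 without those from 140 Mb. The part of density in the counts of gained and lost regions was not tested.

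**Figure D5:**
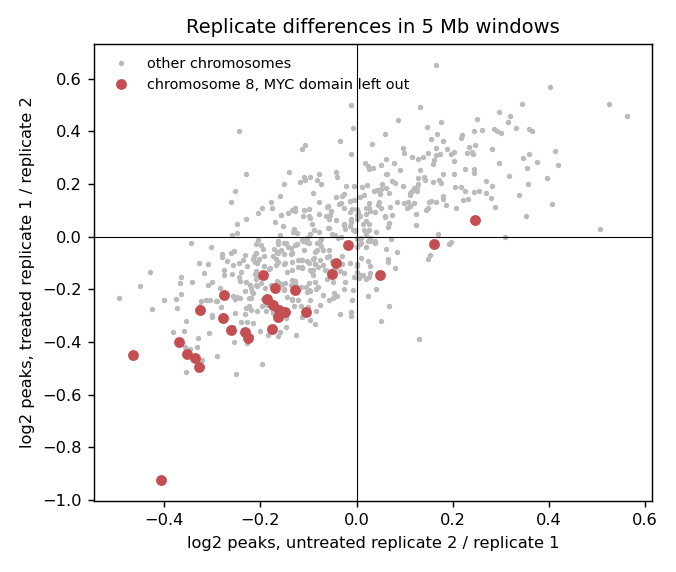
Log2 ratio of peak counts in untreated replicate 2 to replicate 1 (horizontal) and in treated replicate 1 to replicate 2 (vertical) for windows of 5 Mb with at least 100 regions, with chromosome 8 outside the MYC domain in red (28 windows) and other chromosomes in grey. Most red points lie in the lower left, where untreated replicate 2 and treated replicate 1 have fewer peaks than their partners, and 3 lie to the right of 0.

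Sites on chromosome 8 were widely spaced. The median distance between the centres of neighbouring regions was 4367 bp, against 2466 bp over all chromosomes, 3823 bp on chromosome 4 and 4728 bp on chromosome 13. In the terminal stretch it was 1692 bp. Regions wider than 1000 bp, formed by several neighbouring peaks, made up 20.6% of the regions in all 4 lists, against 27.2% over all chromosomes and 20.6% on chromosome 13. Over all regions the median width was 527 bp here and 516 bp over all chromosomes. On the terminal stretch they made up 39.0%, and on the long arm before it 17.7%. Peak sets on chromosome 8 overlapped more within the untreated pair than in any other pair, with a Jaccard index of bases of 0.490. The index was 0.376 within the treated pair, 0.366 and 0.434 from untreated replicate 1 to each treated library, and 0.372 and 0.428 for untreated replicate 2. Treated replicate 2 was thus closer to either untreated library than to treated replicate 1.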

How the data were processed

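ATAC-seq peak lists of 2 untreated and 2 treated BCPAP libraries were used, 1 list each. MACS2, Bowtie2, Trimmomatic and Picard, with hg19, are listed in the submitters' processing notes. Versions, settings and any read-end shift for the transposase: not given in the sources used here. The deposited intervals on chromosome 8 are 500 bp wide. The deposited peak score sums to the same total in each list and was not used. The deposited fold enrichment is the caller's own value for each peak. Its values were whole multiples of 1 step per list (within 0.001 of a step, wider in proportion above 100 steps), which gave the background coverage and the summit coverage in reads (4 or more). The deposited −log10 p and q-values ranked and filtered peaks within a list.

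Regions were merged from peaks sharing 1 bp on chromosomes 1 to 22 and X, and assigned by their centre to 5 Mb windows and arms. Windows of all chromosomes leave out the MYC domain. Presence needs at least 1 peak, and a region's coverage is that of its highest peak. Arm ratios were compared by exact two-sided permutation over the 6 assignments of 4 libraries. The rule for named regions took the 5 best gained, lost, shared, increased and decreased regions, and the windows with the 4 highest counts of lost regions and the 3 highest and lowest ratios. Members, lists and settings were chosen with earlier results of these data known. The merging was tested on simulated lists of well separated sites. Replicate numbers mark no shared batch in the labels and were not used as pairs. Software was scipy 1.17.1, pandas 2.3.3 and numpy 2.4.6 under Python 3.11.15, with matplotlib 3.10.9 for plots. The planned gene lists were not run, since no hg19 annotation was used, and no sequence of this chromosome is shown.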

Additional observations from a re-analysis of the deposited data

How the results depend on the processing

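Gained and lost regions had few reads, and read depth is unknown. The cause of the changes under other settings was not tested. When every list was cut to the same number of peaks, the log2 ratio of gained to lost was −1.58, with −1.98 before 140 Mb and 0.29 from 140 Mb. At a −log10 q of at least 5, 68 regions were gained, with log2 ratios of −2.76 in all, −2.96 before and −1.06 from 140 Mb, and the log2 ratio of peaks per Mb was −0.45. At a coverage of at least 10, 49 were gained, with −3.21, −3.38 and −1.28, and −0.51 for peaks. The end of the long arm was thus below 0 in both, where all chromosomes were at −1.62 and −2.04, and it stayed above all chromosomes by 0.57 and 0.76. Among the 20000 strongest peaks 27 were gained and 33 lost, with log2 ratios of −0.29 in all, −0.31 before 140 Mb and −0.28 relative to all chromosomes. Without the stretch from 140 Mb the ratio was −1.15 (−1.48 relative), and the arm difference in peak density turned to 0.018. Leaving out 1 library gave 446 to 1503 gained and 781 to 1730 lost regions. It also changes what a class requires, and the log2 ratio over all chromosomes then ranged from −0.83 to 1.62. On chromosome 8 it was −1.96 to 0.92 (sign reversed at 0.92 and 0.20 without treated replicates 1 and 2). Before 140 Mb it was −2.32 to 0.76 (sign reversed without treated replicate 1), and from 140 Mb −0.68 to 2.17 (sign reversed without untreated replicate 1). These signs are not comparable between rules. Relative to all chromosomes under the same rule, the ratio was −1.43 to −0.35 on chromosome 8 and 0.12 to 0.85 from 140 Mb. Both relative ratios kept their sign. Peaks per Mb ranged from −0.20 to 0.028, reversed without treated replicate 1. Arm differences ranged from −0.070 to −0.045 in density and −0.15 to −0.12 in coverage. The replicate block gave −0.058 for density (exact sign-flip permutation p = 0.5), −0.050 for coverage and −0.082 for peaks per Mb. Same-numbered libraries did not deviate together (r = −0.81 over 28 windows), and crossed pairs gave 0 calls in 2 tests, in which 0.5 is the smallest p that 2 pairs allow. Merging within 150 bp and keeping the MYC domain changed no direction, and the arm difference in coverage was −0.016 in each.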
